A study of Arabidopsis thaliana with 48 samples.

Results

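In Arabidopsis thaliana shoot apices, 771 of 27206 genes in the count table were lower in both chr4 mutants than in their controls at every week sampled. The 771 do not count 3 genes that were left out and are named below. The 40 of the 771 with the lowest scores are described here. The mutants are chr4-2, an insertion line (sail_783c05) set against wild type Col (WT), and qem2, set against the quintuple mutant svp flc ft tsf soc1 in whose background it was recovered, and known from the study to carry a change in CHR4. For every gene the CPM (read counts divided by the library total and scaled to a common total) were averaged in each group, and the log2 ratio of mutant over control was taken with 0.5 CPM added to both, at 3, 4, 5 and 6 weeks. The score of a gene is the highest of its 8 ratios, and the 40 lowest scores make up the set after AT4G25320, AT1G22275 and AT3G20475 were left out. The 40 genes were selected on these ratios, which for them are given as a description without a test. The scores of the 40 ran from -1.13 to -0.38, and 4 genes had all 8 ratios at or below -1.

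Plants of all genotypes were grown in short days (8 h light, 16 h dark, 21 C), and tissue enriched for the apical meristem was taken after 3, 4, 5 and 6 weeks from sowing. Each library was made from 15 apices and each genotype and week had 3 libraries, described as independent biological replicates. The quintuple and qem2 plants share the svp, flc, ft, tsf and soc1 mutations, and WT and chr4-2 carry none of them. Each chr4 mutant is a single line. The column for qem2 at 5 weeks, replicate 3, is identical to that of quintuple at 5 weeks, replicate 3, at all 27206 genes and was not used, so qem2 at 5 weeks had n = 2 and 47 libraries remained. Libraries held 2.91 to 19.7 M assigned reads (median 14.2 M), and the shallowest was qem2 at 6 weeks, replicate 1. The samples are whole apices, in which fewer cells of a type and less RNA per cell cannot be told apart.

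CHR4, also named PICKLE RELATED 1, is a chromatin remodeller of the CHD family, relatives of the PICKLE protein. CHD remodellers use ATP to move or space nucleosomes and bind histone tails through chromodomains, and in plants this family is linked to genes that carry the Polycomb mark H3K27me3 or the active mark H3K4me3. The genes described here have no single function: they encode chromatin proteins, parts of the ubiquitin pathway, lipid and ion transporters, metabolic and cell-wall enzymes and stress proteins. The role groups were assigned after the values had been seen.

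The CHR4 transcript checks the labels of chr4-2. At 3 weeks WT libraries held 163 ± 10.7 CPM (SD, n = 3) and chr4-2 libraries 71.3 ± 12.4, and at 6 weeks 224 ± 13.3 and 105 ± 0.694. Over the 4 weeks CHR4 was lower in chr4-2 than in WT (log2 -1.14 ± 0.04, adjusted p = 7.65e-23, edgeR). In qem2 the transcript was higher than in quintuple (log2 0.32 ± 0.04, adjusted p = 3.24e-07, edgeR), with 249 ± 15.8 CPM against 172 ± 8.23 at 3 weeks. A transcript level says nothing of a point change in the coding sequence, so it does not check the qem2 label.

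The 250 bases before the annotated start are shown for the 5 genes of lowest score, those whose weakest of 8 ratios was lowest. Sequences are from the RefSeq genome TAIR10.1 and are written 5′ to 3′ on the strand of the gene. Capitals mark TATAAA, the core of a TATA box, and GATAAG, the core of an I-box, on either strand. The windows of ALKBH2 and AT5G07360 reach into AAT and IPK2a. These genes, on the opposite strand, overlap the annotated starts by 2 and 125 bases. LPPbeta lies downstream of chr4:11879022-11879271 (minus strand), AT1G20670 of chr1:7168042-7168291 (minus strand), ALKBH2 of chr2:9460668-9460917 (plus strand), AT5G07360 of chr5:2330463-2330712 (minus strand) and CHR23 of chr5:6498493-6498742 (plus strand).
LPPbeta: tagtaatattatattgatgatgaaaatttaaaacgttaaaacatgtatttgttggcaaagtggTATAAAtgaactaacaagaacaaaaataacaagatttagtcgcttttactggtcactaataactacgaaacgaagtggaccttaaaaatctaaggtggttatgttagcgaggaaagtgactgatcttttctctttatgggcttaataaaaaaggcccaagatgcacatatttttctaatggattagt
AT1G20670: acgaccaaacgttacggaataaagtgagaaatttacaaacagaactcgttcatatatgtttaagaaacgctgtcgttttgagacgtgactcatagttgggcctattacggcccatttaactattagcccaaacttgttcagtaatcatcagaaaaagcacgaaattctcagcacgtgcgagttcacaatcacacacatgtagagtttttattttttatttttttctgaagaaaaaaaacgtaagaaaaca
ALKBH2: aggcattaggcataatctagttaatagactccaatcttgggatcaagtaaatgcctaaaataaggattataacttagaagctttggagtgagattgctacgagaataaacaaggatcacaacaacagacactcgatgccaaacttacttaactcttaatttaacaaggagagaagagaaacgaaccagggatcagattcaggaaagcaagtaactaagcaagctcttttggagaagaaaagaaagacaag
AT5G07360: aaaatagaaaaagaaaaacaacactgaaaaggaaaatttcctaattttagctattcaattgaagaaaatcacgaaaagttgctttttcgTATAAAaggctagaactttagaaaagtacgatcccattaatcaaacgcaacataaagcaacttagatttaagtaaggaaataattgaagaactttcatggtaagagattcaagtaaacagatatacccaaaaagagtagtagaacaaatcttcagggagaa
CHR23: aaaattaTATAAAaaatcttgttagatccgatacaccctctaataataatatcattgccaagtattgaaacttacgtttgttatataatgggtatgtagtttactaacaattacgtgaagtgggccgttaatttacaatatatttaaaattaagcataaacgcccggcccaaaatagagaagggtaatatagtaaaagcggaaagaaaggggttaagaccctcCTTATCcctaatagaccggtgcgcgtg

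LPPbeta, AT5G07360 and CHR23 each hold TATAAA in this window, CHR23 alone of the 5 holds GATAAG (as its reverse complement CTTATC), and AT1G20670 and ALKBH2 hold neither. Over all 40 genes, TATAAA was found on either strand in 60.0% of windows, against 47.7% of 26709 windows of the same length. GATAAG was in 22.5% against 12.2%, TGGGCC in 17.5% against 13.9%, TTGAC in 42.5% against 45.0% and CCAAT in 45.0% against 46.1%. GAGAGA was in 10.0% against 20.4%, CACGTG in 2.5% against 6.58%, and AACCCTA in none of the 40 against 6.50%. Motifs were counted on both strands and may overlap each other, and windows that reach into another gene were kept. The windows of the 40 genes had a median GC content of 29.6% and all windows 31.2%. A match of letters is not a binding site.

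The ratios of the 40 genes differed little between the mutants in the middle of the set. Median log2 ratios at 3, 4, 5 and 6 weeks were -0.70, -0.91, -0.90 and -0.85 for chr4-2 and -0.62, -0.83, -0.86 and -0.93 for qem2. Averaged over the weeks and turned into percentages, the ratios put the median gene at 54.6% of WT in chr4-2 and at 57.6% of quintuple in qem2. All percentages of a control given here hold the added 0.5 CPM, which draws genes of few reads towards their control. The highest of these percentages was 72.2% in chr4-2 (AT5G47540) and 69.2% in qem2, and the lowest was 21.8% in chr4-2 (GRP3S) and 31.9% in qem2 (CYSD2). In the edgeR fit, which does not add 0.5 CPM, AT3G24360 was lower in qem2 (log2 -3.14) than CYSD2 (log2 -2.24). For 24 of the 40 genes, every mutant library lay below every control library of its week in all 8 comparisons, and of 23848 genes with a read 0.155% did so. Since the same values chose the genes, nothing is read from that count. The glycine-rich protein gene AT4G30460 overlapped in all 8 comparisons.

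**Figure D1:**
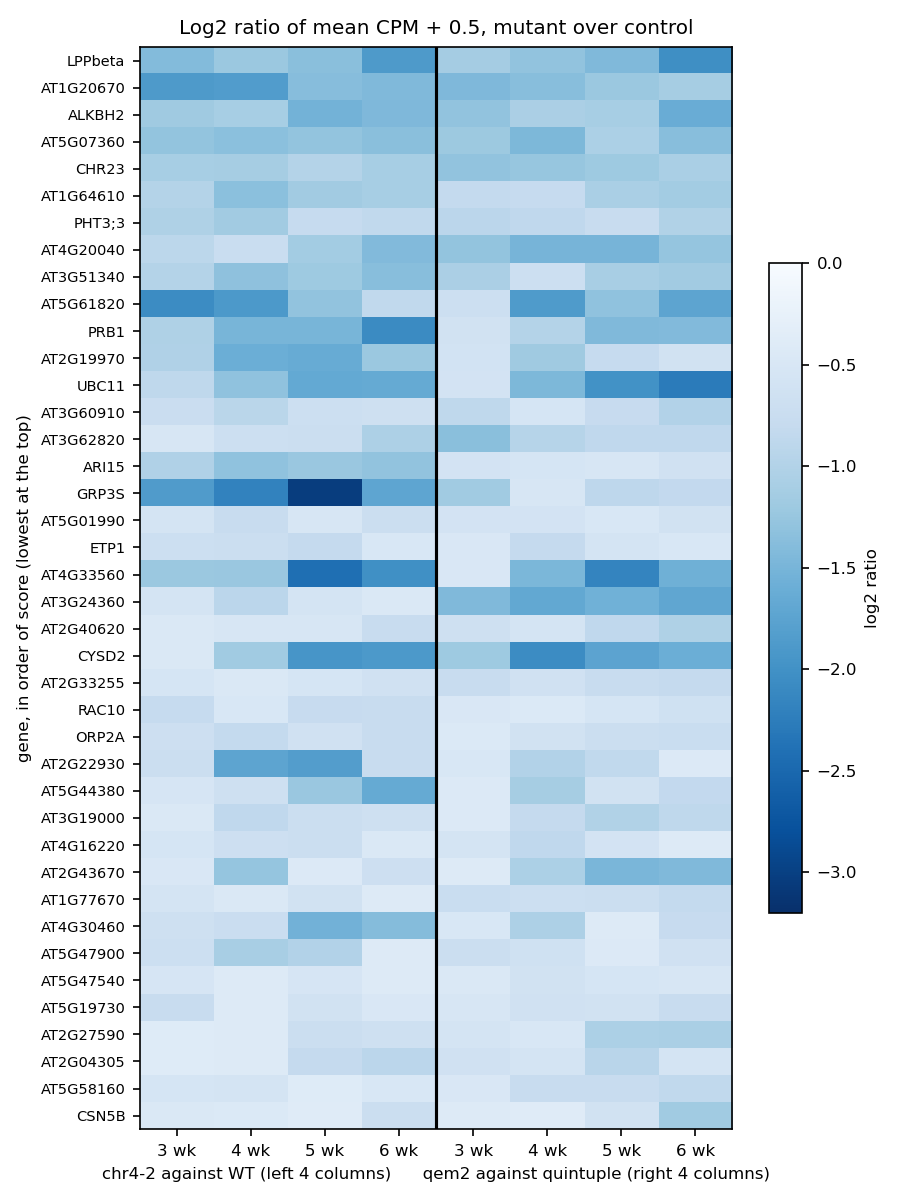
Log2 ratio of mean CPM + 0.5 of mutant over control for the 40 genes (rows, lowest score at the top), at 3 to 6 weeks, for chr4-2 against WT (left) and qem2 against quintuple (right). Darker blue is lower, every cell is below 0, and GRP3S in chr4-2 at 5 weeks is the darkest at -3.03.

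The chromatin and transcription group has 4 genes. CHR23 encodes an ATPase of the SWI/SNF class, known to act together with its close relative CHR12 in embryo and meristem development. At 3 weeks its libraries held 29.7, 35.2 and 32.6 CPM in WT, 12.1, 16.9 and 15.4 in chr4-2, 32.8, 35.5 and 34.3 in quintuple and 13.4, 14.7 and 12.8 in qem2. At 6 weeks the values were 25.3, 26.9 and 21.4 in WT, 9.75, 11.6 and 11.9 in chr4-2, 25.2, 28.6 and 27.7 in quintuple and 12.0, 13.2 and 12.5 in qem2. No mutant library of any week reached the lowest control library: the highest of 12 chr4-2 libraries held 16.9 CPM and the lowest of 12 WT libraries 21.4, and for qem2 and quintuple these were 15.2 and 25.2. The log2 ratios of CHR23 were -1.12 to -0.98 in chr4-2 and -1.30 to -1.08 in qem2, the narrowest span of ratios among the 10 genes of lowest score.

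AT1G20670 encodes a bromodomain protein, a class that binds acetylated histones. The 12 WT libraries held 28.6 to 41.8 CPM (median 36.1) and the 12 chr4-2 libraries 7.34 to 15.8 CPM (median 11.2), while quintuple held 28.2 to 50.8 CPM (median 39.4) and the 11 qem2 libraries 8.55 to 19.9 CPM (median 17.4). Neither mutant overlapped its control, and the log2 ratios were -1.88 to -1.38 in chr4-2 and -1.45 to -1.11 in qem2. ALKBH2 encodes a 2-oxoglutarate-dependent dioxygenase that repairs alkylated DNA bases. The 12 WT libraries gave 5.17 to 9.37 CPM (median 7.36) and the 12 chr4-2 libraries 1.45 to 5.05 CPM (median 2.39), while quintuple held 5.06 to 10.2 CPM (median 8.27) and the 11 qem2 libraries 1.72 to 4.77 CPM (median 2.75). Here too the highest mutant library was below the lowest control library of any week. AT2G40620, a bZIP transcription factor, had the mildest ratios of this group (-0.75 to -0.47 in chr4-2 and -1.03 to -0.57 in qem2). Its 12 WT libraries spanned 11.8 to 21.4 CPM (median 14.6) and the chr4-2 libraries 7.45 to 13.9 CPM (median 10.2), so these ranges overlapped.

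Of the 40 genes, 10 kept all libraries of both mutants below all libraries of the matching control when the weeks were pooled: LPPbeta, AT1G20670, ALKBH2, AT5G07360, CHR23, AT1G64610, UBC11, AT3G60910, ORP2A and AT1G77670. Among the 23848 genes with a read 0.0629% did so, and the score used the same values.

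The ubiquitin and signalling group has 8 genes. UBC11 encodes a ubiquitin-conjugating (E2) enzyme. Its libraries held 22.1, 23.5 and 22.4 CPM in WT at 3 weeks and 24.8, 20.4 and 18.9 at 6 weeks, and in chr4-2 10.1, 12.9 and 13.6 and then 5.56, 6.52 and 7.18. Quintuple held 21.4, 26.5 and 21.1 and then 18.9, 20.2 and 18.1, and qem2 15.5, 14.4 and 15.9 and then 2.06, 4.18 and 4.44. The gap to the control thus ran from a log2 ratio of -0.58 in qem2 at 3 weeks to -2.27 at 6 weeks. ARI15, an ariadne-type RING protein of the ubiquitin ligase class, stood at 43.1% of WT in chr4-2 and 67.7% of quintuple in qem2. CSN5B is a catalytic subunit of the COP9 signalosome, which removes the ubiquitin-like RUB protein from cullin ligases. It is the last gene inside the set, with log2 ratios of -0.70 to -0.39 in chr4-2 and -1.17 to -0.38 in qem2, and its lowest library was the shallowest one (2.75 CPM).

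ETP1 encodes an F-box protein that targets EIN2, a central regulator of ethylene signalling. The 12 WT libraries showed 22.4 to 45.9 CPM (median 31.4) and the 12 chr4-2 libraries 13.7 to 27.3 CPM (median 20.0), while quintuple held 26.5 to 59.0 CPM (median 47.8) and the 11 qem2 libraries 20.1 to 38.4 CPM (median 30.9). Ranges over all weeks overlapped between each mutant and its control, although within each week they did not. RAC10, a small GTPase of the plant ROP family, had log2 ratios of -0.79 to -0.49 in chr4-2 and -0.65 to -0.45 in qem2. For the WD40 protein gene AT1G64610 the WT range was 6.23 to 9.94 CPM (median 7.08) and the chr4-2 range 1.79 to 3.74 CPM (median 3.36). Its quintuple range was 7.08 to 11.7 CPM (median 9.45) and its qem2 range 3.63 to 5.82 CPM (median 4.54), without overlap on either side. AT5G47540, of the Mo25 family of kinase scaffolds, and AT5G58160, annotated as actin binding, had median ratios of -0.52 and -0.54 over the 8 comparisons.

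Of the 6 genes of lipid and membrane transport, LPPbeta has the lowest score of all 40. It encodes a lipid phosphate phosphatase, an enzyme that removes the phosphate of phosphatidic acid. At 3 weeks it was at 7.13, 7.07 and 5.74 CPM in WT, 2.36, 2.12 and 2.07 in chr4-2, 7.49, 6.35 and 6.01 in quintuple and 2.40, 2.75 and 3.11 in qem2. At 6 weeks it was at 7.01, 8.33 and 6.85 CPM in WT, 1.58, 1.73 and 1.62 in chr4-2, 5.86, 5.06 and 5.15 in quintuple and 0, 1.60 and 1.20 in qem2. The library at 0 is the shallowest one, where 0 reads allow up to 1.03 CPM (3 reads of 2.91 M, counting error only). Both mutants stood at about the same share of their control, 36.2% in chr4-2 and 36.0% in qem2.

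ORP2A, an oxysterol-binding-protein relative that carries lipids between membranes, lies 11.473 kb from LPPbeta on chromosome 4 on the same strand, with a pseudogene that the count table does not hold between them. The 12 WT libraries carried 79.4 to 97.2 CPM (median 89.7) and the 12 chr4-2 libraries 44.8 to 61.6 CPM (median 54.8), while quintuple held 89.8 to 105 CPM (median 99.1) and the 11 qem2 libraries 46.5 to 75.2 CPM (median 62.3). The mutant and control ranges did not overlap, and its pooled SD between replicates, 0.10 on the log2 scale, was the smallest of the 40. PHT3;3 encodes a mitochondrial phosphate carrier. Over all weeks WT had 12.0 to 18.6 CPM (median 15.1), chr4-2 5.25 to 9.30 CPM (median 7.37), quintuple 8.95 to 17.8 CPM (median 15.0) and qem2 5.76 to 9.55 CPM (median 7.89). Over all weeks 3 qem2 libraries lay above the lowest quintuple library, but within each week none did. AT5G01990 (auxin efflux carrier family), AT2G04305 (CorA-like magnesium transporter) and AT4G16220 (GDSL-type lipase) stood at 64.3%, 64.7% and 65.8% of WT in chr4-2. AT4G16220 is a low gene, with at most 2.84 CPM in WT, and its libraries were free of overlap in 2 of the 8 comparisons.

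The metabolic enzymes number 11. AT5G07360, of the amidase family, showed 17.7 to 26.6 CPM (median 22.6) in WT, 5.84 to 11.5 CPM (median 8.70) in chr4-2, 16.8 to 29.6 CPM (median 24.2) in quintuple and 6.96 to 12.1 CPM (median 9.61) in qem2, so no mutant library reached a control. Its ratios were -1.36 to -1.28 in chr4-2 and -1.45 to -1.05 in qem2. CYSD2, a cysteine synthase isoform, was at 2.99, 3.35 and 2.61 CPM in WT and 2.1, 1.91 and 2.07 in chr4-2 at 3 weeks, and at 9.89, 9.91 and 6.85 and 2.06, 2.24 and 1.76 at 6 weeks. In quintuple it was at 1.87, 1.73 and 1.29 and in qem2 at 0.559, 0.413 and 0.327 at 3 weeks, and at 7.21, 2.96 and 4.38 and 1.37, 1.26 and 1.20 at 6 weeks. The WT libraries at 6 weeks all lay above those at 3 weeks and the chr4-2 ranges overlapped, while quintuple and qem2 were both higher at 6 weeks.

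AT1G77670, a pyridoxal-phosphate-dependent transferase, ran between 48.2 to 62.7 CPM (median 51.5) in WT and 32.7 to 40.9 CPM (median 36.8) in chr4-2. Quintuple had 40.9 to 58.9 CPM (median 52.3) and qem2 24.7 to 34.0 CPM (median 31.8), and neither pair overlapped. AT3G60910 and AT2G27590, a pair of predicted methyltransferases, stood at 59.5% and 68.4% of WT in chr4-2 and at 57.6% and 57.5% of quintuple in qem2. For AT3G24360, of the crotonase family, the counts are small. The 12 WT libraries had 0.399 to 1.99 CPM (median 0.837) and 153 reads in all, chr4-2 0.0740 to 1.22 CPM (median 0.355) and 78 reads, quintuple 0.987 to 2.73 CPM (median 1.60) and 314 reads, and qem2 0 to 0.655 CPM (median 0.152) and 35 reads. The remaining enzymes are AT2G22930 (UDP-glycosyltransferase), AT5G44380 (berberine-bridge-like), AT3G19000 (2-oxoglutarate-dependent oxygenase), AT2G33255 (haloacid-dehalogenase-like) and AT5G47900 (an acetyltransferase-like protein), with mean shares of 41.9% to 68.6% of WT in chr4-2.

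Cell-wall proteins make up 6 of the genes. AT4G20040, a pectin-lyase-like protein, was at 6.33, 5.35 and 4.55 CPM in WT, 1.51, 1.93 and 1.69 in chr4-2, 6.20, 4.43 and 6.28 in quintuple and 2.75, 1.19 and 2.19 in qem2 at 6 weeks. Over all weeks it spanned 2.77 to 6.33 CPM (median 4.23) in WT and 1.18 to 2.84 CPM (median 1.69) in chr4-2, and 3.57 to 6.38 CPM (median 4.87) in quintuple and 0.587 to 2.75 CPM (median 1.65) in qem2. GRP3S, a glycine-rich protein, was at 73.6, 23.8 and 23.7 CPM in WT and 15.4, 8.80 and 8.17 in chr4-2 at 3 weeks, and at 13.5, 13.7 and 23.3 and 1.79, 0.824 and 2.22 at 5 weeks. In quintuple it was at 8.97, 11.7 and 11.4 and in qem2 at 6.14 and 5.01 at 5 weeks. Its ratios with 0.5 CPM added differed most between the mutants of all 40: the mean log2 ratio was -2.20 in chr4-2 and -0.85 in qem2. In the edgeR fit AT3G24360, a gene of few reads, differed more (log2 -1.25 in chr4-2 and -3.14 in qem2) than GRP3S (log2 -2.44 and -0.91). AT3G62820 (pectin methylesterase inhibitor family), AT2G43670 (X8 domain), AT5G19730 (pectin-lyase-like) and AT4G30460 (glycine-rich) complete the group, at 47.3% to 67.6% of WT in chr4-2 and 46.8% to 64.9% of quintuple in qem2.

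The defence and stress group had the lowest median of the 6 role groups in chr4-2 (log2 -1.52 over its 5 genes) and a median of -1.11 in qem2. In qem2 the chromatin and transcription group was lowest (log2 -1.24 over its 4 genes). These medians rest on the ratios that chose the genes, and nothing is read from their order. PRB1 encodes a basic relative of the pathogenesis-related protein PR1. Its WT libraries held 23.5, 30.0 and 21.5 CPM at 6 weeks and its chr4-2 libraries 5.90, 7.64 and 3.03, against 5.19, 10.7 and 11.8 in quintuple and 2.40, 5.02 and 2.04 in qem2. AT5G61820, annotated as a stress-related Nod 19 protein, was at 8.01, 1.99 and 3.46 CPM in WT and 0.394, 0.795 and 0.879 in chr4-2 at 3 weeks, with WT replicate 1 the highest. At the same week quintuple gave 2.53, 3.87 and 2.75 and qem2 2.24, 1.44 and 1.39. The aspartyl protease gene AT3G51340 ranged over 3.90 to 7.18 CPM (median 5.50) in WT and 1.31 to 2.96 CPM (median 1.95) in chr4-2, and over 3.21 to 6.91 CPM (median 5.18) in quintuple and 1.51 to 4.39 CPM (median 2.26) in qem2. Only in the second pair did libraries overlap, at 4 weeks.

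**Figure D2:**
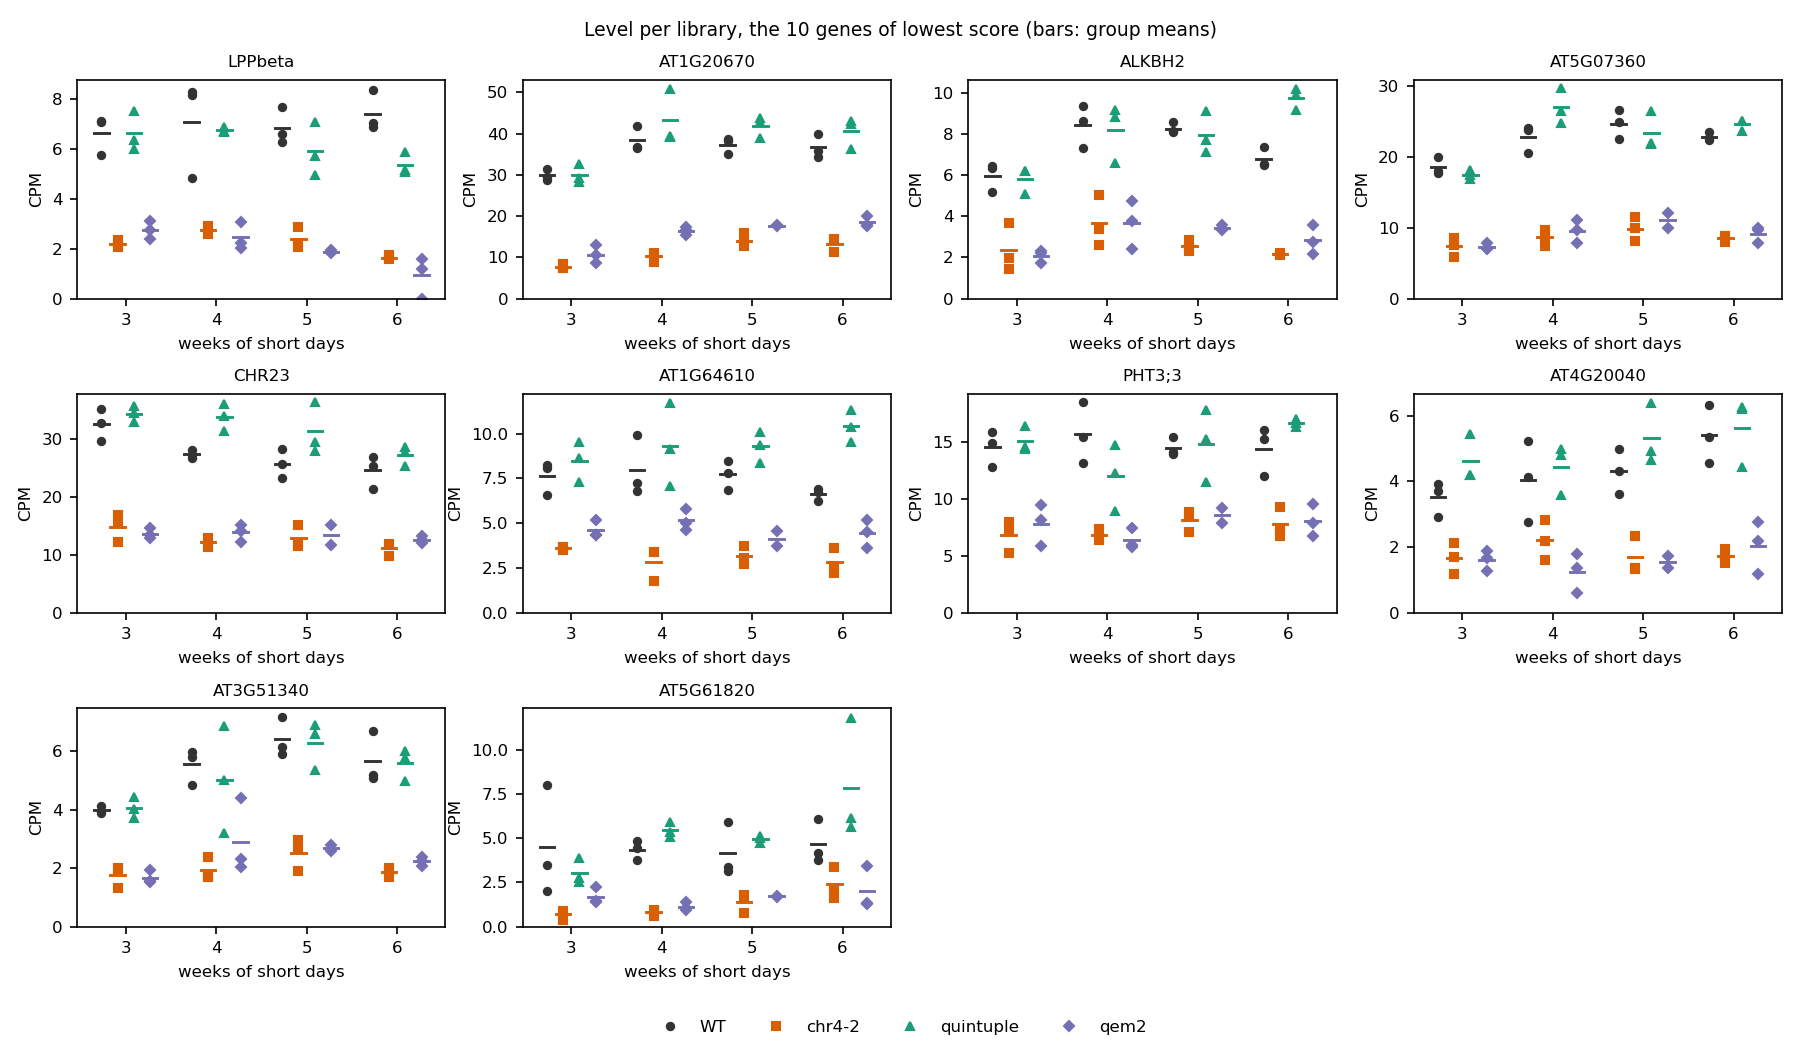
CPM in every library (points) and group means (bars) against weeks of short days for the 10 genes of lowest score, in WT, chr4-2, quintuple and qem2. In 8 of the 10 panels, all but AT4G20040 and AT3G51340, no chr4-2 or qem2 point reaches a point of its control at the same week.

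Annotation puts the 40 genes on all 5 chromosomes: 4 on chromosome 1 (10.0%, against 26.1% of all annotated genes in the count table), 11 on chromosome 2 (27.5% against 15.6%), 7 on chromosome 3, 6 on chromosome 4 and 12 on chromosome 5 (30.0% against 23.2%). CHR4 itself is on chromosome 5, and the nearest of the 12 is AT5G44380, at 201.782 kb. All 40 are protein coding, with a median of 5 exons against 4 for all genes and a median coding length of 1112 against 1065 bases. In WT the median gene of the set had 12.5 CPM and the median of all 19566 tested genes 20.9 CPM, which compares read counts and not levels per length. The median SD between replicates was 0.24 on the log2 scale for the 40 and 0.19 for all tested genes. For 12 of the 40, the annotation lists another gene that overlaps by 2 to 804 bases, on the opposite strand for 10 of them. Whether the counting used strand is not given in the sources used here, so reads of such a partner cannot be told apart.

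The comparison of quintuple with WT asks whether the loss of the 5 flowering regulators by itself goes with a change in these genes. It was not used to choose them, although both genotypes are the controls of the choice. Averaged over the 4 weeks, 6 of the 40 were higher and 9 lower in quintuple than in WT (edgeR, adjusted p under 0.05), against 11.3% and 11.4% of all tested genes (22.6% in either direction). As shares these are 15.0% and 22.5%, and the median log2 fold change was -0.05 for the 40 and -0.003 for all genes. The other 25 genes did not pass the test. Sums of marker lists in these genotypes were not tested, and some of the 12 lists are given. The reproductive organ list (9 genes) summed to 9.06 to 37.9 CPM per library in WT and 15.7 to 111 in quintuple, with no gene at 0. The wounding and jasmonate list (10 genes) summed to 226 to 1848 CPM in WT and 244 to 4875 in quintuple. The leaf mesophyll list (12 genes) summed to 4227 to 9979 CPM in WT and 3824 to 9096 in quintuple. The list of dark and sugar starvation (6 genes) summed to 71.9 to 279 CPM in WT and 137 to 2551 in quintuple. The root list (10 genes) summed to 124 to 821 and 100.3 to 361 CPM, with PLT1 and RHD6 at 0 in WT and PLT2 and RHD6 in quintuple. All these ranges overlap, and their part in the changes of the 40 genes was not tested. Week by week, 1 of the 40 was lower and none higher at 3 weeks, where 0.404% of all genes were called (0.174% lower, 0.23% higher). At 4 weeks 2 were higher and 4 lower, against 7.52% and 4.83% (12.4% in either direction). At 5 weeks 1 was higher and 4 lower, against 2.56% and 4.3% (6.86% in either), and at 6 weeks 1 was higher and 4 lower, against 2.82% and 3.48% (6.29% in either).

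Among the 9 lower genes was AT4G33560, a wound-responsive protein gene, which WT libraries held at 27.9, 29.7 and 25.4 CPM and quintuple libraries at 7.81, 6.30 and 5.29 at 6 weeks. The fold over the weeks was log2 -1.96 ± 0.29, adjusted p = 6.07e-06. The chr4-2 libraries at 6 weeks held 13.5, 4.79 and 1.20 and qem2 2.40, 1.32 and 1.83 CPM, so WT was above all other genotypes at that week. PRB1 was lower in quintuple (log2 -0.96 ± 0.15, adjusted p = 1.21e-05), with 38.3, 60.5 and 40.8 CPM in WT and 19.2, 21.8 and 24.5 in quintuple at 4 weeks. GRP3S was lower too (log2 -0.96 ± 0.25, adjusted p = 0.00495). Week by week its call stood only at 3 weeks (log2 -2.38 ± 0.50, adjusted p = 0.0157), where WT had 73.6, 23.8 and 23.7 CPM and quintuple 7.75, 5.66 and 10.1. AT2G22930 (log2 -1.18 ± 0.37, adjusted p = 0.0172) and AT4G30460 (log2 -1.11 ± 0.37, adjusted p = 0.0274) were called too. The AT2G22930 call was lost without WT at 6 weeks, replicate 1 (adjusted p = 0.137). The AT4G30460 call was lost without WT replicate 1 at 3 weeks, 2 at 4 weeks, 2 at 5 weeks or 1 at 6 weeks, or quintuple replicate 3 at 6 weeks, or with the compared libraries alone, with an adjusted p of at most 0.122. CYSD2, ARI15, AT2G43670 and AT5G19730 complete the 9, with log2 folds of -0.69, -0.44, -0.80 and -0.64.

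The 6 genes higher in quintuple had small folds. AT3G24360 (log2 0.86 ± 0.23, adjusted p = 0.00481) and ETP1 (log2 0.41 ± 0.08, adjusted p = 0.000369) led, and at 4 weeks ETP1 was at 31.6, 38.9 and 37.8 CPM in WT and 55.3, 59.0 and 57.9 in quintuple. AT2G40620 followed (log2 0.38 ± 0.10, adjusted p = 0.0035), with 15.0, 19.6 and 14.1 against 23.0, 23.9 and 30.8 CPM at 4 weeks. AT1G64610 (log2 0.31 ± 0.09, adjusted p = 0.0123), CHR23 (log2 0.19 ± 0.06, adjusted p = 0.0126) and ORP2A (log2 0.13 ± 0.04, adjusted p = 0.0073) completed them. The AT1G64610 call was lost without quintuple at 4 weeks, replicate 3 (adjusted p = 0.0505).

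Change with age was tested in each genotype, 6 against 3 weeks. The choice of genes used no difference between weeks, but the libraries of both weeks entered its ratios. In WT 6 of the 40 were higher and 7 lower at 6 weeks, against 18.8% and 19.2% of all tested genes (38% in either direction). In quintuple 8 were higher and 7 lower (20.5% and 21% of all, 41.5% in either direction). In chr4-2 7 were higher and 13 lower (22.9% and 23.1%, 45.9% in either), and in qem2 5 were higher and 14 lower (18% and 17.5%, 35.5% in either). Whether these counts differ between genotypes was not tested, and since selected values enter them nothing is read from their difference. Of the 40, 4 were lower in all 4 genotypes, 2 higher in all 4 and 11 called in none. The shares of all tested genes with such joint calls were not computed, so nothing is read from these counts.

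The 4 genes that fell in every genotype were AT2G22930, AT5G44380, AT3G19000 and AT5G47540. AT5G44380, a berberine-bridge-like oxidase gene, went from 10.1, 9.16 and 7.83 CPM at 3 weeks to 4.29, 3.93 and 2.1 at 6 weeks in WT (log2 -1.45 ± 0.34, adjusted p = 0.000957) and from 7.62, 5.57 and 5.12 to 1.30, 0.509 and 0.423 in chr4-2 (log2 -3.09 ± 0.41, adjusted p = 1.97e-07). In quintuple it went from 9.37, 9.25 and 8.58 to 1.75, 4.74 and 1.48 (log2 -1.84 ± 0.34, adjusted p = 5.08e-05) and in qem2 from 6.55, 7.29 and 5.89 to 1.37, 1.32 and 1.13 (log2 -2.41 ± 0.41, adjusted p = 1.74e-05). The 3 and 6 week libraries of each genotype did not overlap. AT3G19000 fell from 15.4, 14.8 and 15.7 CPM to 10.7, 10.1 and 9.46 in WT (log2 -0.63 ± 0.18, adjusted p = 0.00523) and from 11.7, 13.2 and 11.8 to 5.15, 3.35 and 5.78 in qem2 (log2 -1.40 ± 0.20, adjusted p = 1.26e-06).

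AT2G22930, a glycosyltransferase gene, was at 2.46, 2.45 and 2.15 CPM in WT at 3 weeks and 1.31, 0.157 and 0.307 at 6 weeks (log2 -1.83 ± 0.70, adjusted p = 0.0357). The WT call was lost without any of the 3 libraries at 3 weeks or without replicate 2 or 3 at 6 weeks (adjusted p of at most 0.157). In qem2 it was at 1.12, 1.79 and 2.70 CPM at 3 weeks, and no read was found in the 3 libraries at 6 weeks. Set against a floor of 3 reads over that group, the pooled level at 6 weeks was at least 19.5-fold lower. AT5G47540 was at 14.1, 12.5 and 11.9 CPM at 3 weeks in WT and 7.54, 9.28 and 9.77 at 6 weeks, a log2 fold of -0.57 that was lost without WT at 6 weeks, replicate 1 (adjusted p = 0.0582). In chr4-2, quintuple and qem2 its log2 folds were -0.57, -0.60 and -0.68, and the last was lost without qem2 at 6 weeks, replicate 3 (adjusted p = 0.0751).

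Higher at 6 weeks in every genotype were AT5G19730 and AT5G01990. AT5G19730, a pectin-lyase-like protein gene, rose from 14.8, 14.7 and 14.0 CPM to 39.9, 36.5 and 37.9 in WT (log2 1.37 ± 0.24, adjusted p = 2.38e-05) and from 8.67, 7.53 and 8.90 to 33.2, 22.7 and 25.3 in chr4-2 (log2 1.57 ± 0.25, adjusted p = 3.33e-06). It rose from 8.71, 11.0 and 13.8 to 25.1, 31.0 and 30.1 in quintuple and from 6.15, 8.19 and 8.84 to 16.8, 16.1 and 17.62 in qem2, by log2 1.32 and 1.10. AT5G01990 went from 10.2, 11.6 and 10.6 CPM to 18.2, 21.4 and 12.8 in WT (log2 0.64 ± 0.16, adjusted p = 0.00228). Its calls in the other genotypes were lost without quintuple replicate 3 at 3 weeks (adjusted p = 0.101), without chr4-2 replicate 2 or 3 at 3 weeks or 1 or 3 at 6 weeks, with the compared libraries alone or with the duplicated column kept (at most 0.196), and without qem2 replicate 1 or 2 at 3 or 6 weeks (at most 0.118).

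AT4G33560 and CYSD2 rose in 3 genotypes each. AT4G33560 went from 5.81, 3.35 and 3.78 CPM to 27.9, 29.7 and 25.4 in WT (log2 2.65 ± 0.57, adjusted p = 0.000433), and the qem2 libraries, 1.28, 1.10 and 1.15 and then 2.40, 1.32 and 1.83 CPM, gave a log2 fold of 0.51 that was not called. Its calls in quintuple and chr4-2 (log2 1.76 and 1.94) were lost without quintuple replicate 1, 2 or 3 at 3 weeks or 1 at 6 weeks (adjusted p of at most 0.0726) and without chr4-2 replicate 2 at 3 weeks or 1 at 6 weeks or with the compared libraries alone (at most 0.451). CYSD2 rose in WT (log2 1.54 ± 0.28, adjusted p = 4.43e-05), quintuple (log2 1.5 ± 0.29, adjusted p = 9.13e-05) and qem2 (log2 1.49 ± 0.42, adjusted p = 0.0051), and had a log2 fold of -0.13 in chr4-2, not called. These differences between genotypes were not tested, apart from quintuple against WT.

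Lower at 6 weeks in both mutants and not called in either control were UBC11, PRB1 and ORP2A. UBC11 fell in chr4-2 (log2 -1.07 ± 0.17, adjusted p = 5.30e-06) and in qem2 (log2 -1.96 ± 0.19, adjusted p = 1.02e-09), while its log2 folds in WT and quintuple were -0.11 and -0.33. PRB1 fell in chr4-2 (log2 -1.34 ± 0.33, adjusted p = 0.00135) and in qem2 (log2 -1.12 ± 0.38, adjusted p = 0.0204), the latter call lost without qem2 replicate 1 at 3 weeks or 3 at 6 weeks (adjusted p of at most 0.164). ORP2A fell by less (log2 -0.33 ± 0.07, adjusted p = 0.000363 in chr4-2 and log2 -0.44 ± 0.07, adjusted p = 1.65e-05 in qem2). A call in the mutants and none in the controls is not a test of the difference, and the ratios that chose the genes hold the same libraries. CHR23 fell in WT, quintuple and chr4-2 (log2 -0.44, -0.39 and -0.56) and had -0.12 in qem2, not called. The bromodomain gene AT1G20670 rose in quintuple, chr4-2 and qem2 (log2 0.37, 0.66 and 0.74), with 0.26 in WT, not called. The quintuple call was lost when the duplicated column was kept (adjusted p = 0.0987).

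GRP3S fell in WT (log2 -1.96 ± 0.49, adjusted p = 0.00208) and chr4-2 (log2 -1.99 ± 0.56, adjusted p = 0.00424), from 73.6, 23.8 and 23.7 CPM to 5.65, 8.96 and 16.7 in WT. The WT call was lost without WT replicate 1 at 3 weeks, the library of 73.6 CPM, and with the compared libraries alone (adjusted p of at most 0.110). AT2G43670, an X8-domain protein gene of the kind found at the cell wall, was called in opposite directions. It rose in WT from 1.14, 0.997 and 0.456 CPM to 4.66, 3.93 and 3.58 (log2 2.22 ± 0.44, adjusted p = 0.000137) and in chr4-2 from 0.131, 0.583 and 0.724 to 1.92, 2.55 and 2.54 (log2 1.97 ± 0.47, adjusted p = 0.000765). In qem2 it fell from 0.959, 0.619 and 0.655 to 0, 0 and 0.211 CPM (log2 -2.87 ± 0.77, adjusted p = 0.00371), on 29 reads at 3 weeks and 3 reads at 6 weeks, and that call was lost without qem2 replicate 2 at 6 weeks (adjusted p = 0.0549). Quintuple held 0.962, 1.73 and 0.772 and then 0.337, 1.01 and 1.76 CPM and was not called. The difference of its change with age between quintuple and WT passed a test added after the values were seen (adjusted p = 0.0468, edgeR), the only call among the 40 genes, against 1.04% of all. That test was not repeated in the alternative fits.

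**Figure D3:**
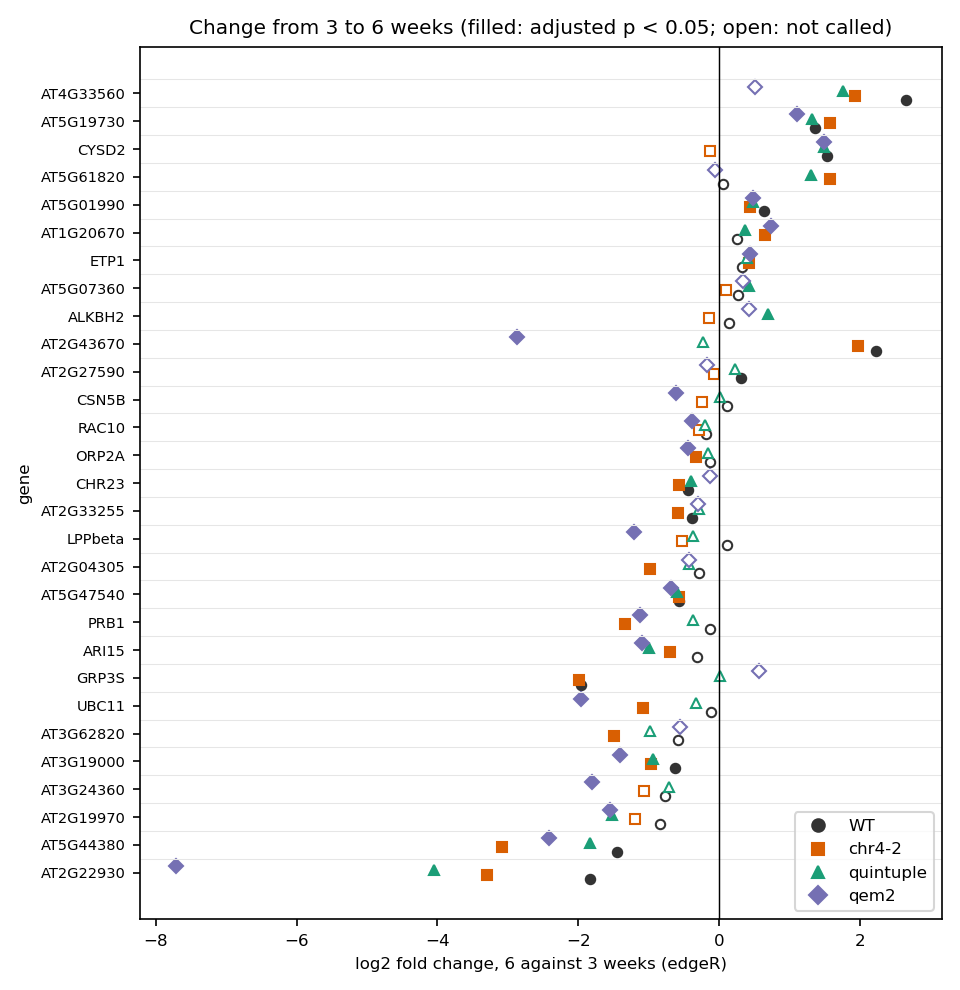
Log2 fold change from 3 to 6 weeks (edgeR) of the 29 genes called in at least 1 genotype, in WT, chr4-2, quintuple and qem2, with filled symbols where the adjusted p was under 0.05. AT2G43670 lies on opposite sides of 0 in WT and qem2, and the qem2 value of AT2G22930 at the far left is a fit to a group without reads and is no bound.

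Genes beside the 40 were examined to see how far along the chromosome the lower levels reach. The 2 nearest annotated genes on each side gave 154 other genes, of which 127 are in the count table and 99 could be tested. Averaged over the weeks, 14 of the 99 were lower in chr4-2 than in WT and 5 higher (edgeR), which is 14.1% lower against 5.38% of all tested genes and 5.05% higher against 6.5%. In qem2 against quintuple 11 were lower and 3 higher, or 11.1% and 3.03% against 4.88% and 6.2% of all. The median log2 fold change of the 99 was -0.08 in chr4-2 and -0.05 in qem2, with medians of -0.01 and -0.001 over all tested genes. Of the nearest genes 8 of 52 were lower in chr4-2 and 5 of 52 in qem2, and of the second nearest 6 of 48 in each, a difference that was not tested, where a neighbour of several genes counts under each.

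Lower in both mutants were 4 neighbours: CPK6, AUD1, BCA5 and RABA5a. The shares of all tested genes called lower or higher in both mutants were not computed, so nothing is read from the number of such neighbours. CPK6, a calcium-dependent protein kinase that lies 3827 bases beyond PHT3;3, fell in chr4-2 (log2 -0.63 ± 0.10, adjusted p = 6.92e-06) and in qem2 (log2 -0.52 ± 0.10, adjusted p = 0.000282). Between these genes AT2G17280, 625 bases from PHT3;3, moved the other way, rising in chr4-2 (log2 0.83 ± 0.16, adjusted p = 0.000261) and in qem2 (log2 0.59 ± 0.16, adjusted p = 0.0134). AUD1, an enzyme of UDP-xylose synthesis beside AT3G62820, fell in both (log2 -0.53 ± 0.05, adjusted p = 1.56e-09 and log2 -0.28 ± 0.06, adjusted p = 0.000479). BCA5, a beta carbonic anhydrase near AT4G33560, fell as well (log2 -0.41 ± 0.05, adjusted p = 1.59e-07 and log2 -0.47 ± 0.05, adjusted p = 1.74e-08). The RABA5a call in chr4-2 was lost without WT replicate 2 at 3 weeks or 1 at 6 weeks, or chr4-2 replicate 1 at 3 weeks, or with the compared libraries alone (adjusted p of at most 0.0797), while AT2G17280, CPK6, AUD1 and BCA5 kept theirs in every fit. Higher in both were AT2G17280, XID and AT1G77660, and the XID call in qem2 was lost without qem2 at 5 weeks, replicate 2 (adjusted p = 0.128).

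The largest fall among neighbours in chr4-2 was that of AT4G30450, beside AT4G30460, with a log2 fold of -1.42 ± 0.44 (adjusted p = 0.0295, edgeR). It was lost without any of 6 libraries (WT at 3 weeks replicate 1, 4 weeks replicate 3, 5 weeks replicate 2 and 6 weeks replicate 3, and chr4-2 at 3 weeks replicate 3 and 5 weeks replicate 3), with an adjusted p of at most 0.126. In qem2 AT4G33550 fell most (log2 -2.36 ± 0.72, adjusted p = 0.0280). That call was lost without qem2 at 5 weeks replicate 1 or 2 or 6 weeks replicate 3, or quintuple at 6 weeks replicate 3, with the compared libraries alone or with the duplicated column kept (adjusted p of at most 0.116). AT4G33550 ends 22 bases from AT4G33560, which is among the 40. Around LPPbeta and ORP2A, AT4G22520 fell in chr4-2 (log2 -0.67 ± 0.10, adjusted p = 1.36e-05) and had a log2 fold of -0.13 in qem2, not called. On the other side AT4G22560, 1058 bases from LPPbeta, was lower in chr4-2 (log2 -0.36 ± 0.12, adjusted p = 0.0393) and had -0.09 in qem2, not called. Its chr4-2 call was lost in 16 of 30 alternative fits (adjusted p of at most 0.0922): with the compared libraries alone, without WT replicate 2 at 3 weeks, 1 or 2 at 4 weeks, or 2 or 3 at 5 or 6 weeks, and without chr4-2 replicate 2 or 3 at 3 or 4 weeks or 1 or 3 at 5 or 6 weeks. APT3 beyond it fell in chr4-2 (log2 -0.28 ± 0.08, adjusted p = 0.0114) and had -0.22 in qem2, not called (adjusted p = 0.0812).

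Pairs among the 40 were few. LPPbeta and ORP2A have no counted gene between them, and ETP1 and AT3G19000 lie 5.347 kb apart on chromosome 3 on opposite strands, with VRN1, a DNA-binding protein of the vernalization response, between them. VRN1 was not called in chr4-2 (log2 -0.02 ± 0.04, adjusted p = 0.92) or in qem2 (log2 -0.04 ± 0.04, adjusted p = 0.609). ETP1 rose with age in chr4-2 and qem2 (log2 0.42 and 0.44), calls that were lost in 9 of 12 alternative fits each (adjusted p of at most 0.251 and 0.182), among them those without chr4-2 replicate 1 or 3 at 3 or 6 weeks and without qem2 replicate 2 or 3 at 3 or 6 weeks. AT3G19000 fell with age in all 4 genotypes, so this pair did not move together in time. The next pair, AT5G47900 and AT5G47540, is 106.407 kb apart with 36 counted genes between.

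**Figure D4:**
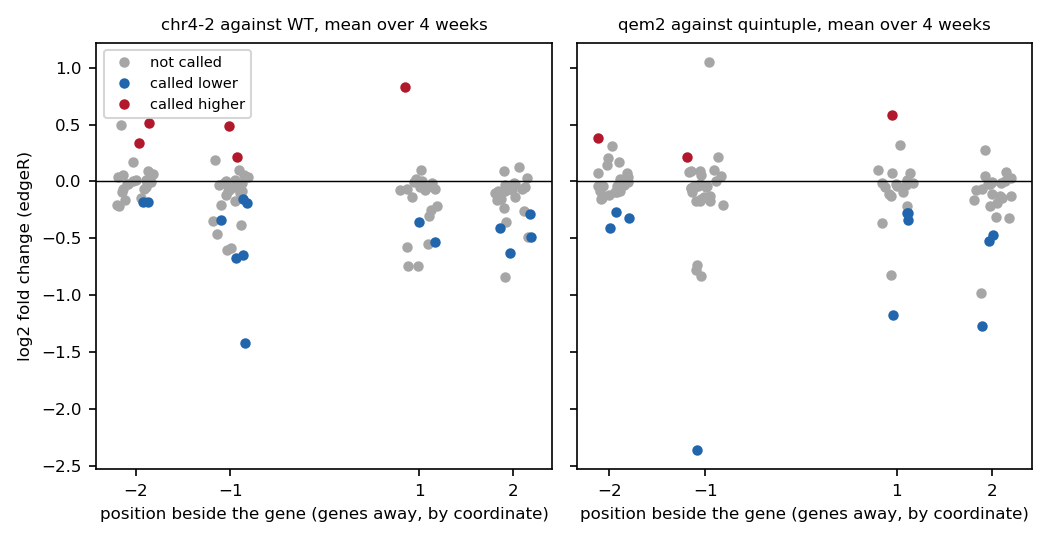
Log2 fold change (edgeR, mean over 4 weeks) of the tested genes at the 1st and 2nd position on either side of the 40 genes, for chr4-2 against WT and qem2 against quintuple (points spread sideways for view). Most points lie near 0, with 14 and 11 genes called lower and 5 and 3 called higher.

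The closest match of each gene by protein sequence (blastp among RefSeq proteins) was compared in the same way, although a match can cover only a stretch of the protein and need not have the same function. A match was found for 34 of the 40, at 30.2% to 93.9% identity over the aligned part, none of them in the set itself, and 29 could be tested. None of the 29 was higher and 2 (6.90%) were lower in each mutant, against 5.38% of all tested genes in chr4-2 and 4.88% in qem2. In chr4-2 these were AAT (log2 -0.19 ± 0.06, adjusted p = 0.0242), the closest match of AT1G77670, and AT3G19010 (log2 -0.49 ± 0.13, adjusted p = 0.00673), which matches AT3G19000 at 61.6% identity and is the second gene beyond it, 1049 bases away. In qem2 they were AT2G22270 (log2 -0.28 ± 0.05, adjusted p = 0.000293) and AT5G44390 (log2 -1.18 ± 0.37, adjusted p = 0.0339), which stand beside ALKBH2 and AT5G44380. AAT lies beside ALKBH2 as well, so all of these called matches are also counted among the lower neighbours. The match of AT2G22270 to ALKBH2 covers 80 of 347 residues, and its annotated product, a hematological/neurological-like protein, is of another kind. AAT was not called without WT at 3 weeks replicate 1 or 5 weeks replicate 2, or chr4-2 at 4 weeks replicate 1 or 3, or with the compared libraries alone (adjusted p of at most 0.0602). AT5G44390 was not called without qem2 at 3 weeks replicate 1, 4 weeks replicate 3, 5 weeks replicate 2 or 6 weeks replicate 2, or quintuple replicate 2 at 4 weeks, 1 at 5 weeks or 2 at 6 weeks, with the compared libraries alone or with the duplicated column kept (at most 0.136).

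The named pairs range from near copies to more distant relatives. UBC11 and UBC10 are 93.9% identical, and UBC10 was not called (log2 -0.001 ± 0.05 in chr4-2 and 0.06 ± 0.05 in qem2). RAC10 and ROP10 are 89.0% identical, and ROP10 was not called (log2 -0.00061 ± 0.05 in chr4-2 and -0.03 ± 0.05 in qem2). CSN5B and CSN5A are 85.7% identical, and CSN5A was not called (log2 0.07 ± 0.05 in chr4-2 and 0.00044 ± 0.05 in qem2). ORP2A and ORP2B share 81.3% of aligned residues, and ORP2B was not called (log2 -0.03 ± 0.06 in chr4-2 and -0.07 ± 0.06 in qem2). CHR23 and ATCHR12 share 76.0% over 1085 residues, and ATCHR12 was not called (log2 0.07 ± 0.04 in chr4-2 and -0.0012 ± 0.04 in qem2). The same held for ETP2 beside ETP1 (49.5% identical), PHT3;1 beside PHT3;3 (53.8%) and AT1G76380 beside AT1G20670 (60.1%). PR1, the closest match of PRB1, had wide errors (log2 -0.31 ± 0.35 in chr4-2 and 0.55 ± 0.43 in qem2) and 0.920 CPM in WT. In the most alike of these pairs the counting could assign some reads to the wrong copy, which was not tested.

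**Figure D5:**
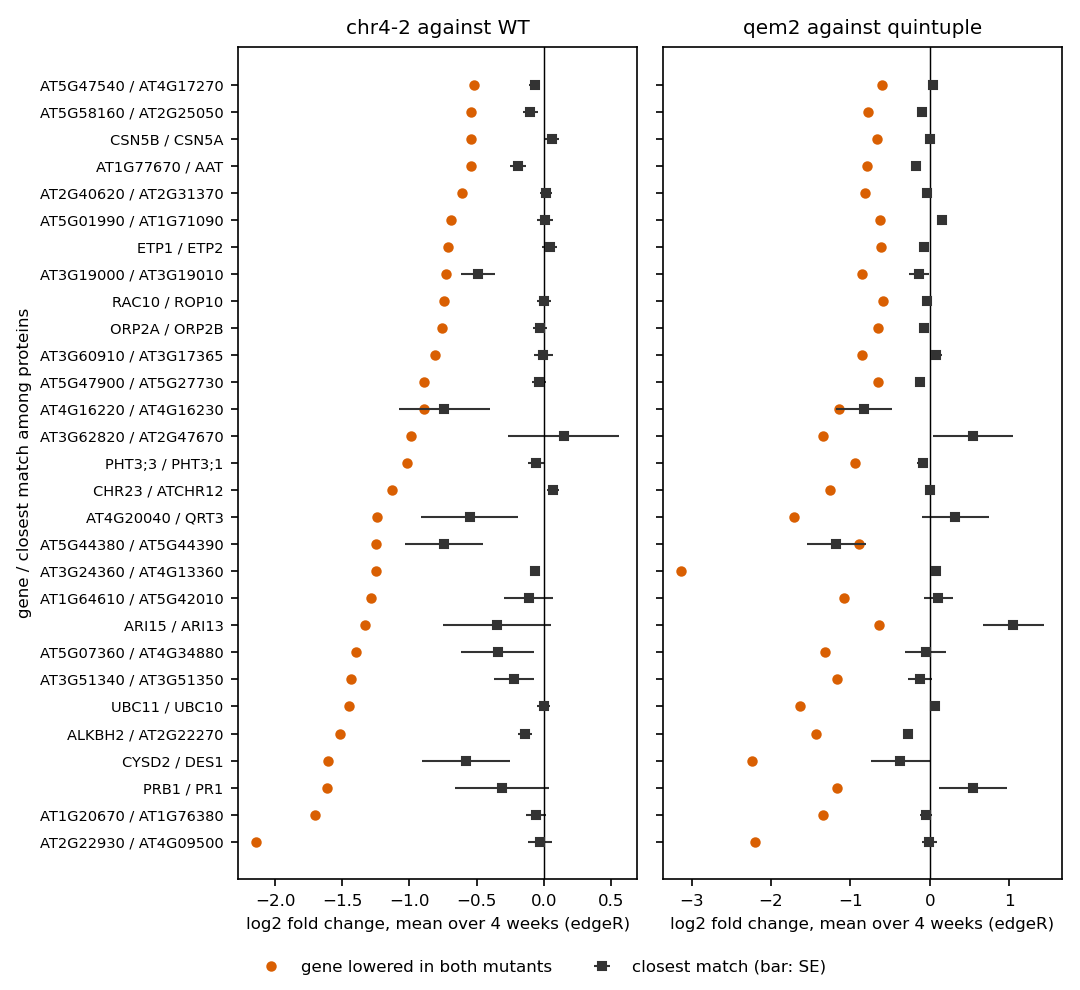
Log2 fold change (edgeR, mean over 4 weeks) of the 29 genes with a tested closest match (circles) and of that match (squares, with SE bars), for chr4-2 against WT and qem2 against quintuple. Circles lie below 0 because they were chosen so, while most squares lie near 0, and 2 are called lower on each side.

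Marker lists give the makeup of the apices. The shoot meristem list (13 genes) summed to 303 to 665 CPM per library in WT and 325 to 763 in chr4-2, and to 332 to 587 in quintuple and 420 to 591 in qem2, so markers of the labelled tissue were detected in every library. Of all tested genes 6.5% were higher and 5.38% lower in chr4-2, and 6.2% and 4.88% in qem2, shares to set beside the calls of every list. In chr4-2 6 of the 13 meristem genes were higher than in WT (edgeR), led by WUS (log2 0.92 ± 0.31, adjusted p = 0.0446) and CUC1 (log2 0.89 ± 0.11, adjusted p = 1.25e-07), and none lower. In qem2 STM and CUC1 were higher and CLV3 (log2 -0.88 ± 0.27, adjusted p = 0.0267) and CUC2 (log2 -0.53 ± 0.10, adjusted p = 0.000321) lower. Leaf mesophyll genes were not called in either mutant (0 of 12) and overlapped widely, from 4227 to 9979 CPM in WT and 3873 to 11176 in chr4-2. Vascular genes had 1 call of 11 in chr4-2 (IRX3, log2 0.76 ± 0.11) and none in qem2, and root genes none of 5, with RHD6 at 0 in all 4 genotypes. Seed genes summed to at most 1.83 CPM in WT, 5.84 in chr4-2, 2.25 in quintuple and 3.55 in qem2. Of 3 tested seed genes CRU3 and OLEO1 were higher in chr4-2 and CRU3 in qem2. CRU3 had no read in WT, and OLEO2 and LEC1 had none in any genotype. Of 6 tested genes of reproductive organs CRC was higher in chr4-2 (log2 0.77 ± 0.22, adjusted p = 0.0182) and SPL8 in qem2 (log2 0.27 ± 0.09, adjusted p = 0.0483), and none was lower. Calls of the marker lists were not refitted without single libraries. The part of such shifts in the lower levels of the 40 genes was not tested.

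Lists of related pathways set the 40 in context. Their calls stand beside the same shares of all tested genes, 6.5% higher and 5.38% lower in chr4-2 and 6.2% and 4.88% in qem2. These list calls too were not refitted without single libraries. Of 18 tested CHD, SWI/SNF, Polycomb and trithorax genes, CHR4 alone was lower in chr4-2 and none higher, and in qem2 CHR4 was higher while CHR17 (log2 -0.23 ± 0.05, adjusted p = 0.000538) and BRM (log2 -0.19 ± 0.06, adjusted p = 0.0368) were lower. CHR23 is not on that list. Of 18 genes matched by symbol to a list of meiotic synapsis and crossover genes, 2 were lower and 5 higher in chr4-2, and 4 lower and 3 higher in qem2. HOP2 of that list was matched to AT1G62740, which may not be the meiotic gene of that name. Both lower genes in chr4-2, ZYP1b (log2 -2.44 ± 0.13, adjusted p = 5.09e-17) and MSH5 (log2 -1.42 ± 0.11, adjusted p = 2.50e-12), are among those left out by the rule, and they were lower in qem2 too (log2 -2.49 and -1.20). Of 10 salicylic acid defence genes only PR5 was lower, in chr4-2 (log2 -1.08 ± 0.14, adjusted p = 9.25e-07) and in qem2 (log2 -0.64 ± 0.15, adjusted p = 0.00361). Wounding and jasmonate genes (10) and heat-shock genes (4) had no call in either mutant, and of 5 genes of sugar starvation DIN11 was lower in chr4-2 (log2 -1.87 ± 0.29, adjusted p = 2.10e-05).

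In the authors' deposited tables of differential genes, all listed entries of the 40 for the mutants were lower. Their chr4-2 tables name 16, 25, 29 and 30 of the 40 at 3, 4, 5 and 6 weeks, where they list 0.221%, 0.312%, 1.45% and 1.68% of all genes as lower. The authors' deposited tables for qem2 name 22, 26, 28 and 28, with 0.482%, 0.412%, 0.599% and 0.875% of all genes listed as lower. The authors' deposited tables list 12 of the 40 in all 8 comparisons, among them CHR23, UBC11, ORP2A and RAC10, and AT4G16220 in none. The share of all genes listed in all 8 was not computed, so nothing is read from that count. These tables rest on the same libraries as the choice and are no separate evidence. Their tables for quintuple against WT, the authors' deposited table of each week, name 2, 2, 3 and 3 of the 40 as lower, with 0.0956%, 0.97%, 2.32% and 1.4% of all genes listed as lower.

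At the edge of the set the scores were close. Just inside were AT2G04305 (-0.394), AT5G58160 (-0.393) and CSN5B (-0.382), and just outside AT2G28105 (-0.381), AT3G19520 (-0.381) and P5CS1 (-0.376), which encodes an enzyme of proline synthesis. P5CS1 had log2 ratios from -0.79 to -0.44 in chr4-2 and from -1.08 to -0.38 in qem2.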

How the data were processed

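RNA from 48 samples was sequenced (TruSeq libraries, per the labels' protocols), and the authors deposited a table of read counts per gene. The submitters' processing notes name TopHat2, SAMtools, HTSeq, DESeq2 and TAIR10, without versions, and whether the counting used strand is not given in the sources used here. The authors' deposited tables of differential genes also hold a base mean (a normalised signal), log2 fold changes and p-values, from which only gene lists and directions were used. Identifiers were matched to RefSeq TAIR10.1 for 26719 genes (98.2%).

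CPM were counts divided by the column total. The members, role groups and gene lists were chosen with earlier results of these data known. Tests used edgeR 4.0.16 (R 4.3.3) with TMM scaling, filterByExpr (19566 genes kept) and the quasi-likelihood test on 47 libraries in 16 groups, with Benjamini-Hochberg adjustment over all 19566 genes and a threshold of 0.05. Errors after ± on log2 folds are standard errors. Genes were named by score (the lowest 10) and by size of fold among called genes. Others were named after their values were seen. Counting error alone is covered by floors of 3 reads: 10 reads equal 3.44 CPM in the shallowest library and 0.506 CPM in the deepest. Closest matches were found with blastp 2.17.0. Scripts were tested on simulated data. Alternatives were RLE scaling, no count filter, DESeq2 1.42.0, a replicate block, the compared libraries alone, leaving out each library and, for the choice of genes, other pseudocounts and scalings. Among tests they covered members in quintuple against WT over the weeks and with age, neighbours and closest matches. The week-by-week calls, the difference of changes with age and the gene lists were not refitted.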

Additional observations from a re-analysis of the deposited data

Results flagged for a closer look

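AT2G43670, an X8-domain protein gene of the set, changed with age differently in the 2 control genotypes. In WT the libraries held 1.14, 0.997 and 0.456 CPM at 3 weeks and 4.66, 3.93 and 3.58 at 6 weeks. In quintuple they held 0.962, 1.73 and 0.772 CPM at 3 weeks and 0.337, 1.01 and 1.76 at 6 weeks. The log2 change from 3 to 6 weeks in quintuple minus that in WT was -2.45 ± 0.63 (SE, edgeR interaction term, adjusted p = 0.0468), where 1.04% of all tested genes passed. This test was added after the values had been seen, and the gene is low, with at most 4.66 CPM in these libraries. The test was not repeated without single libraries or in the other alternative fits.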

How the results depend on the processing

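Numbers of members called, leaving out each compared library in turn, were 13 to 17 for quintuple against WT, and for 6 against 3 weeks 10 to 12 in WT, 12 to 16 in quintuple, 17 to 20 in chr4-2 and 14 to 18 in qem2. Called neighbours numbered 16 to 21 in chr4-2 and 11 to 19 in qem2, and called closest matches 1 to 3 and 1 to 4. With the compared libraries alone 1 closest match was called in each mutant, fewer than the 2 given; the smaller number of libraries is part of that fit. Of 82 calls of members, 52 were kept in every fit, 30 were lost in at least 1 and 0 changed sign. CHR23 and ORP2A were not called in quintuple against WT when the duplicated column was kept, an alternative chosen after seeing the data (adjusted p = 0.0834 and 0.0540), nor were AT1G20670 and AT5G07360 in quintuple with age (0.0987 and 0.0589).

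Same-numbered libraries correlated over 0.1 in 6 of 12 pairs for quintuple against WT, 1 of 3 in each comparison in time, 10 of 12 for chr4-2 and 8 of 11 for qem2. As not every pair of any comparison did, the samples were treated as unpaired, but for both mutants every pair at 3, 4 and 5 weeks was over 0.1 and only pairs at 6 weeks were not. With the replicate block 16 members were called in quintuple against WT, and 13, 15, 19 and 18 in time in WT, quintuple, chr4-2 and qem2, with 20 and 16 neighbours and 2 and 3 closest matches. That block was the same for all genotypes and weeks, so it could not take up a pairing that differs from week to week. The choice shared 35 of 40 genes under a pseudocount of 0.1 or 1, 37 under TMM scaling, 40 under filterByExpr, 33 with all 48 columns, and 34 to 40 without single libraries, where 18 genes were always chosen. Genes of few reads, such as AT3G24360 and AT4G16220, are limited by depth.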
